A study of Brassica rapa subsp. chinensis with 2 samples.

Results

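The genes that make, store and break down sucrose, starch, trehalose and raffinose were followed in stem RNA of 2 *Brassica rapa* lines. A gene was taken as a member where the protein description matched to it held 1 of the words sucrose synthase, sucrose-phosphat, invertase, fructofuranosidase, starch synthase, starch-branching, amylase, trehalose, trehalase, galactinol or stachyose. This gave 121 members of 33087 genes, with 116 best matches in *Arabidopsis thaliana*, 3 in the plane tree *Platanus acerifolia*, 1 in rice and 1 in the fungus *Arthroderma benhamiae*. No starch-branching enzyme was found by this wording. Gene names below are those of the best match, so that several genes can carry 1 name, and the descriptions of what a protein does come from *Arabidopsis* unless stated.

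The 6 libraries were 3 of ‘CX001’ and 3 of ‘FT’, made from stems at the bolting stage. ‘CX001’ was a doubled-haploid flowering Chinese cabbage from microspores of ‘Super Grade 50 Sweet Flowering Chinese Cabbage’, homozygous for the recessive *wlm1*, without stem wax, and ‘FT’ a waxy doubled-haploid Chinese cabbage from microspores of ‘FT50’. Seeds of both were vernalized and the plants grown in a greenhouse. As the lines belong to different crop types, an effect of *wlm1* cannot be told apart from any other difference between their genomes, and the methods do not say whether the 3 libraries of a line came from separate plants. The p-values therefore reflect only how far these libraries differ among themselves, which may be technical.

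In plants, sucrose is made in the cytosol by sucrose-phosphate synthase and sucrose-phosphatase, moves in the phloem and is split in growing tissue by sucrose synthase or by the invertases of the cell wall, vacuole, cytosol and organelles. Starch is built in plastids by starch synthases with debranching isoamylases and is broken down largely by beta-amylases. Trehalose-6-phosphate, made by trehalose-phosphate synthase and removed by trehalose-phosphate phosphatase, is a signal of sucrose status that restrains the kinase SnRK1, while galactinol synthase and raffinose synthase make the raffinose sugars known from seeds, phloem and cold or dry tissue. A bolting stem both imports sugar and carries its own green, starch-holding cells.

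Levels are normalized counts, the reads of a gene in a library divided by the size factor of that library. The authors deposited means per line, from which the reads of each library were worked out, and the libraries are numbered by size factor and not by the authors' own order. Over the 33082 genes for which this was possible, the libraries held 15762094 to 17595979 reads in ‘CX001’ and 15705617 to 16403993 in ‘FT’. Positions are start and end of the gene model on its chromosome in the *Brassica rapa* V3.0 genome. *BraA09g066480.3C*, the gene mapped for *wlm1*, had 24, 12 and 6 reads in ‘CX001’, against 18976, 17143 and 14811 in ‘FT’. The summed markers of phloem, epidermis and green tissue were above 0 in every library, though among green tissue markers *BraA02g014020.3C* (*LHCB3*) had no read in ‘FT’ and *BraA02g017400.3C* (*RBCS-1A*) none in ‘FT’ libraries 1 and 3, and the 5 markers of flower organs found summed to 4.83 to 38.7 normalized counts in ‘CX001’ and 0 to 2.11 in ‘FT’. The summed xylem markers were at 26319, 14159 and 6796 in ‘CX001’ libraries 1, 2 and 3, against 5501, 4103 and 5671 in ‘FT’. Matches of *CESA4*, *CESA7* and *CESA8* led the sum of ‘CX001’ library 1, while among the ‘CX001’ libraries *XCP1* and the *XCP2* matches were highest in library 2. *XCP1* *BraA01g003050.3C* had 2747, 3199 and 2151 in ‘CX001’. In such whole-stem RNA, fewer cells of a type and less RNA per cell cannot be told apart. *Brassica rapa* carries many near-identical gene copies, among which reads may have been split, so a difference between copies of 1 match is uncertain to that extent.

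Of the 121 members, 104 had a mean of at least 5 reads per library in either line and were tested. The other 17 had at most 8 reads over a line, with 3 of them without a read in ‘CX001’ and 6 without a read in ‘FT’. A gene was called where limma voom gave an adjusted p below 0.05 together with a log2 fold change beyond 1 in either direction. By this, 29 members were higher (27.9% of those tested) and 13 lower (12.5%) in ‘CX001’. Across all 27565 genes tested, 14.4% were called higher and 16% lower, 30.4% in either direction. The median log2 fold change was -0.04 over the tested members and 0.0047 over all genes tested. All ‘CX001’ libraries lay above all ‘FT’ libraries for 35 tested members (33.7%, against 29.6% of all genes) and below them for 31 (29.8%, against 28.7% of all genes). By adjusted p alone, 33 members were higher and 28 lower, against 24.1% and 23.9% of all genes tested. Of the 42 called members, 41 had libraries that did not overlap between the lines.

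**Figure D1:**
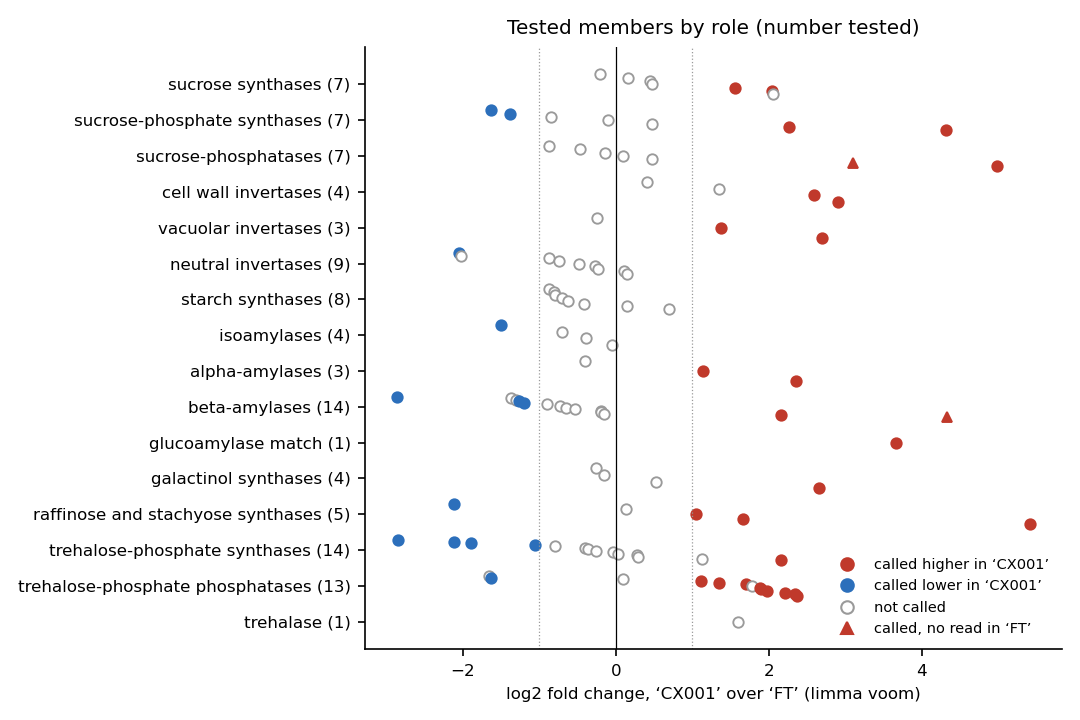
Log2 fold change of ‘CX001’ over ‘FT’ (limma voom, x axis) for the 104 tested members, 1 point per gene, by role (y axis, with the number tested). Filled points were called higher (29) or lower (13) in ‘CX001’, triangles had no read in ‘FT’, and dotted lines mark a log2 fold change of 1 in size.

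Sucrose synthases (7 tested), sucrose-phosphatases (7), cell wall invertases (4), vacuolar invertases (3) and alpha-amylases (3) had 2 calls each, all higher. With 14.4% of all genes called higher and 16% lower, so few calls describe single genes and not a role. Among trehalose-phosphate phosphatases (13 tested), 9 of the 10 calls were higher. Starch synthases had no call, and isoamylases (4 tested) and neutral invertases (9 tested) had a single call each, which was lower. The normalized counts of all 121 members together were 77538, 68665 and 60066 in ‘CX001’, against 68610, 58681 and 68515 in ‘FT’, and these sums overlapped. The sums below are summed normalized counts of a role and are led by the genes with the most reads.

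**Figure D2:**
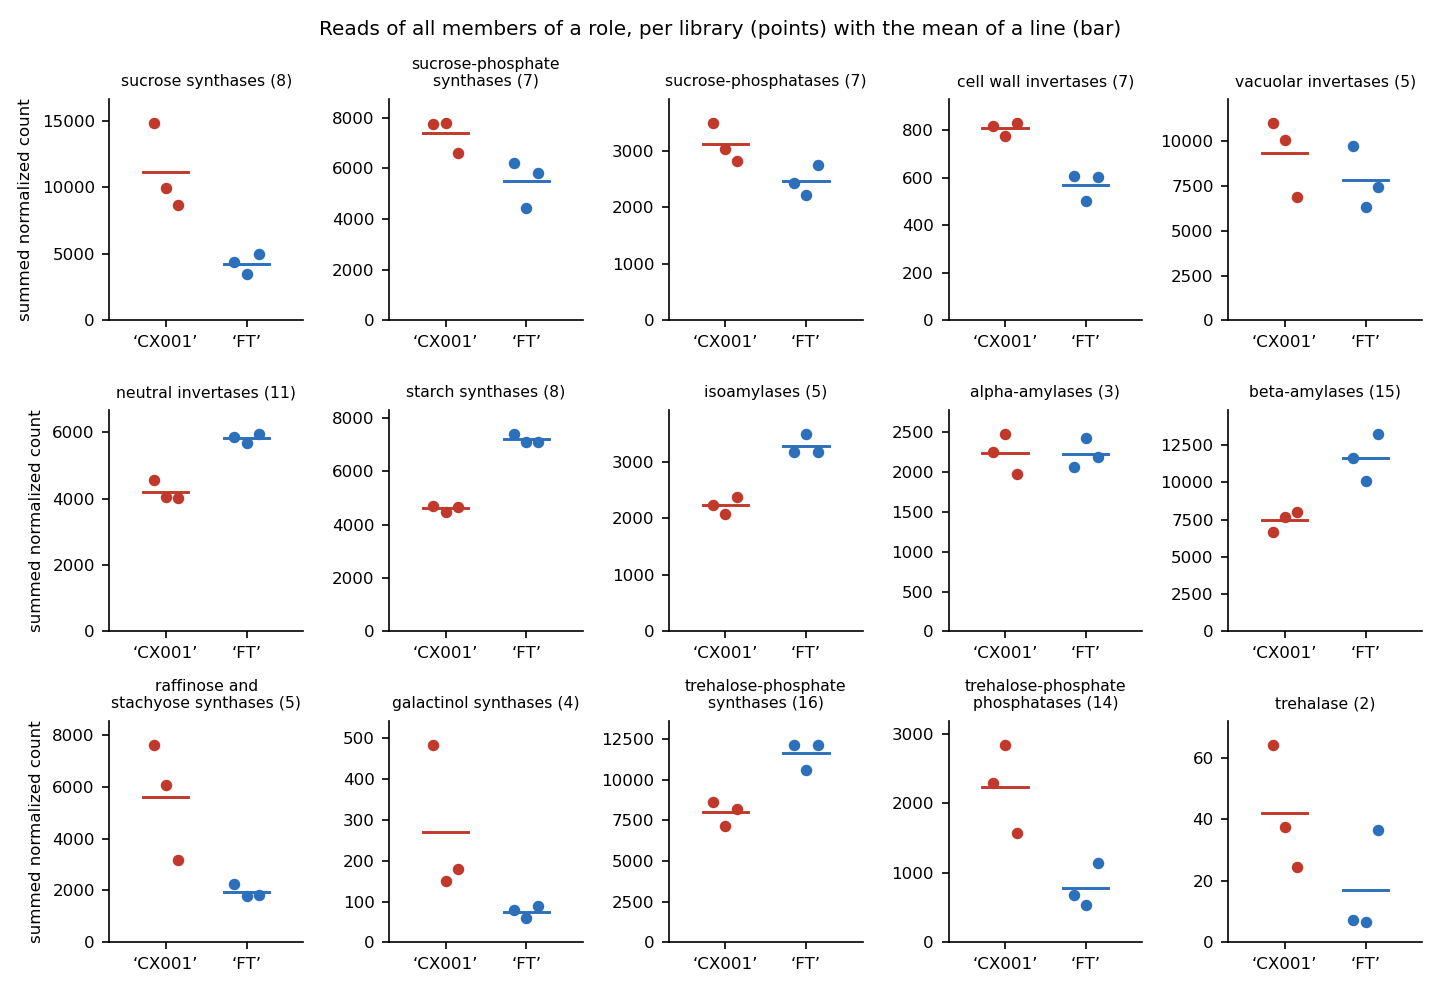
Normalized counts summed over all members of a role (number of members in brackets) in each library. Points are libraries, bars the mean of 3, ‘CX001’ left in red and ‘FT’ right in blue. The ‘CX001’ libraries lay above all ‘FT’ libraries for sucrose synthases, sucrose-phosphate synthases, sucrose-phosphatases, cell wall invertases, raffinose and stachyose synthases, galactinol synthases and trehalose-phosphate phosphatases, and below them for neutral invertases, starch synthases, isoamylases, beta-amylases and trehalose-phosphate synthases.

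Sucrose synthases, which split sucrose with UDP into fructose and UDP-glucose, the precursor of cellulose and callose, are a main way for imported sucrose into metabolism. Their 8 members summed to 14879, 9940 and 8678 in ‘CX001’, against 4358, 3471 and 4976 in ‘FT’. Of 7 tested, 2 were higher and none lower, and both were matches of *SUS1*. *BraA10g019840.3C* (A10, 14525542 to 14528928) had 6754, 4979 and 5041 in ‘CX001’, against 1978, 1436 and 2329 in ‘FT’. The lines did not overlap, and the gene was 2.95-fold higher in ‘CX001’ (log2 fold change 1.56 ± 0.20 SE, limma adjusted p = 4.74e-04). The other *SUS1* gene, *BraA03g009830.3C* (A03, 4214963 to 4218794), had 6210, 2672 and 1313 in ‘CX001’, against 748, 588 and 718 in ‘FT’, a 4.11-fold difference (log2 fold change 2.04 ± 0.47 SE, limma adjusted p = 0.00737). Its ‘CX001’ libraries followed the order of the summed xylem markers given above. The summed green tissue markers, at 33280, 20836 and 20026 in ‘CX001’, had the same order, and the part of either tissue in this difference was not tested. These green tissue sums lack the *RCA* match *BraA04g027940.3C*, whose reads could not be worked out. Their order holds only for the 7 genes summed. Without ‘CX001’ library 1, which had the highest sum of xylem markers, the log2 fold change of *BraA03g009830.3C* was 1.46 (limma adjusted p = 0.00582) and that of *BraA10g019840.3C* 1.42 (limma adjusted p = 0.00182).

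The remaining sucrose synthases were not called. *SUS5* and *SUS6* are known for supplying callose in sieve elements. Both *SUS6* matches lay above ‘FT’ in every ‘CX001’ library, under the fold criterion, and *BraA07g028740.3C* had 636, 742 and 856 in ‘CX001’, against 491, 485 and 633 in ‘FT’. The *SUS5* match *BraA05g015010.3C*, with 661, 877 and 767 in ‘CX001’, against 701, 568 and 805 in ‘FT’, overlapped. *BraA09g001880.3C*, a match of the seed-linked *SUS3*, had 141, 84.9 and 3.77 in ‘CX001’, against 8.43, 4.82 and 12.5 in ‘FT’. Its 2 high ‘CX001’ libraries and 1 low one gave a log2 fold change of 2.06 that was not called (limma adjusted p = 0.291), and without ‘CX001’ library 3 it was 3.68 (limma adjusted p = 0.00142). *SUS2* had 1 read in all.

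Sucrose-phosphate synthases join UDP-glucose and fructose 6-phosphate into sucrose 6-phosphate, and 2 of their 7 members were higher and 2 lower. Both matches of *SPS2* were higher in ‘CX001’. *BraA06g032610.3C* (A06, 22378758 to 22383231) had 656, 896 and 333 in ‘CX001’, against 29.5, 17.3 and 45.2 in ‘FT’, 20-fold higher (log2 fold change 4.32 ± 0.65 SE, limma adjusted p = 9.35e-04). *BraA03g004560.3C* (A03, 1966909 to 1971260) had 836, 1072 and 713 in ‘CX001’, against 239, 95.3 and 251 in ‘FT’, 4.83-fold higher (log2 fold change 2.27 ± 0.33 SE, limma adjusted p = 8.40e-04). Neither gene overlapped between the lines. Of the 3 *SPS1* matches, 2 were lower. *BraA02g008800.3C* (A02, 4140954 to 4144994) had 230.3, 333 and 564 in ‘CX001’, against 949.8, 842 and 1001 in ‘FT’ (log2 fold change -1.39 ± 0.27 SE, limma adjusted p = 0.00343), 2.62-fold lower in ‘CX001’. The short gene model next to it, *BraA02g008810.3C* (A02, 4145112 to 4146404), had 43.9, 92.6 and 153 in ‘CX001’, against 289.9, 197 and 349 in ‘FT’ and was lower as well (log2 fold change -1.63 ± 0.40 SE, limma adjusted p = 0.0103). Whether these neighbours are separate genes is uncertain. *BraA10g020290.3C* (A10, 14730138 to 14735289), the third *SPS1* match, held most reads of the role with 4749, 4998 and 4501 in ‘CX001’, against 3904, 2846 and 3544 in ‘FT’. It lay above ‘FT’ in every ‘CX001’ library, under the fold criterion (log2 fold change 0.48 ± 0.15 SE, limma adjusted p = 0.0256), so that the role as a whole summed to 7757, 7811 and 6601 in ‘CX001’, against 6234, 4435 and 5810 in ‘FT’. *SPS3* *BraA10g003470.3C* (-0.85 on the log2 scale) and *SPS4* *BraA02g028970.3C* (-0.10) were not called.

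Sucrose-phosphatase takes the phosphate off to give free sucrose, and 2 of its 7 members were higher in ‘CX001’. *BraA04g025460.3C* (A04, 18238432 to 18240623), a match of *SPP2*, had 524, 567 and 435 in ‘CX001’, against 15.8, 14.4 and 16.4 in ‘FT’. This was 31.6-fold higher in ‘CX001’ with little spread in either line (log2 fold change 4.98 ± 0.33 SE, limma adjusted p = 3.46e-05). The other *SPP2* match, *BraA03g018710.3C*, had the most reads of the role at 2194, 1841 and 1614 in ‘CX001’, against 1761, 1617 and 1903 in ‘FT’, and its libraries overlapped (log2 fold change 0.09, limma adjusted p = 0.638). The *SPP1* match *BraA05g018300.3C* (A05, 11297867 to 11300220) had 12, 4 and 1 reads in ‘CX001’ and none in ‘FT’, which is at least 5.93-fold higher if ‘FT’ is set at a floor of 3 reads in its 3 libraries together. Without ‘CX001’ library 1 it fell under the minimum of reads. Its call (limma adjusted p = 0.0351) was lost without ‘CX001’ library 2 (limma adjusted p = 0.0788) or without any 1 of the ‘FT’ libraries (up to 0.0934), and with limma-trend on log2(normalized count + 4) (limma adjusted p = 0.0722). *SPP3B* *BraA04g007050.3C* had 37.5, 27 and 39.6 in ‘CX001’, against 56.9, 59.7 and 74.1 in ‘FT’, below all ‘FT’ libraries but within the fold criterion (log2 fold change -0.88, limma adjusted p = 0.0331).

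**Figure D3:**
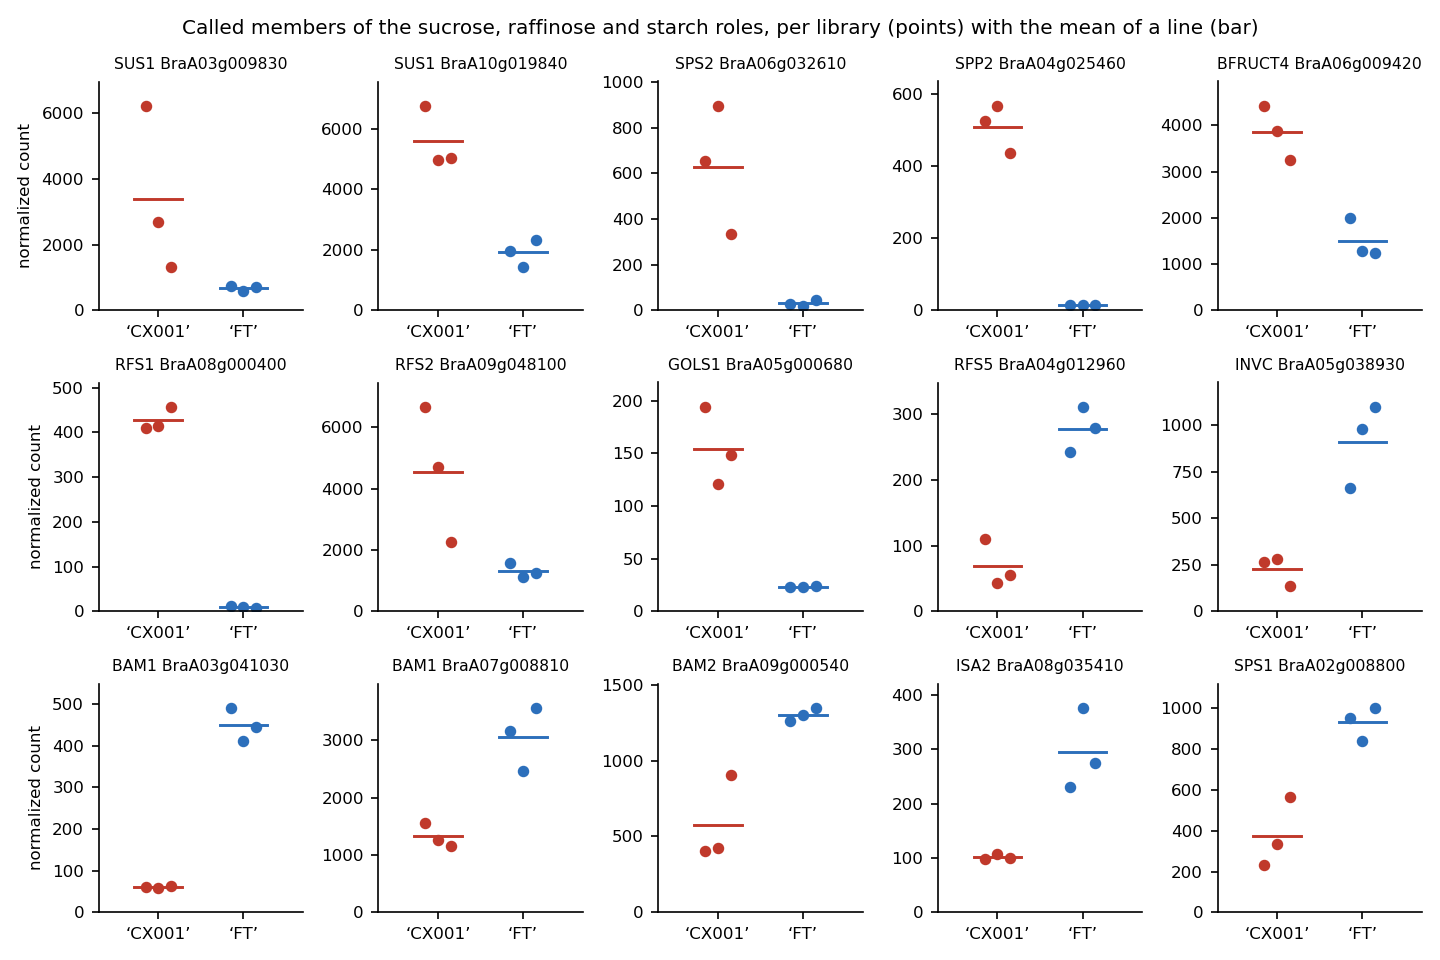
Normalized counts of 15 called members of the sucrose, raffinose and starch roles in each library, chosen after their values were seen. Points are libraries, bars the mean of 3, ‘CX001’ left in red and ‘FT’ right in blue. The lines did not overlap in any of the 15, and the ‘CX001’ points of *SUS1* *BraA03g009830.3C* and *RFS2* spread most.

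Invertases split sucrose into glucose and fructose. The 5 vacuolar members summed to 11012, 10056 and 6886 in ‘CX001’, against 9719, 6308 and 7455 in ‘FT’. Nearly all of this came from the *BFRUCT4* matches *BraA06g009420.3C* and *BraA09g060900.3C*. *BraA06g009420.3C* (A06, 5128135 to 5132173) had 4420, 3882 and 3260 in ‘CX001’, against 2004, 1283 and 1246 in ‘FT’, 2.6-fold higher in ‘CX001’ (log2 fold change 1.38 ± 0.21 SE, limma adjusted p = 9.36e-04). *BraA09g060900.3C* (A09, 42579118 to 42583786) had 6500, 6132 and 3590 in ‘CX001’, against 7706, 5018 and 6200 in ‘FT’, and its libraries overlapped (log2 fold change -0.25 ± 0.25 SE, limma adjusted p = 0.437). A *BFRUCT3* match, *BraA09g015710.3C* (A09, 9411103 to 9414679), was scarce at 92.1, 42.5 and 35.9 in ‘CX001’, against 9.49, 7.7 and 5.78 in ‘FT’, yet 6.47-fold higher in ‘CX001’ (log2 fold change 2.69 ± 0.56 SE, limma adjusted p = 0.00479). The short models *BraA09g012630.3C* (*BFRUCT3*) and *BraA09g012640.3C* (*BFRUCT4*) had too few reads to be tested.

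Among the 7 cell wall invertases, 4 were tested, 2 were higher and none lower in ‘CX001’. The *CWINV3* match *BraA06g000740.3C* gave most of the reads, 718, 699.6 and 797 in ‘CX001’, against 592, 496 and 583 in ‘FT’, above ‘FT’ throughout but under the fold criterion (log2 fold change 0.41, limma adjusted p = 0.0315). Both called genes were rare. *BraA10g026320.3C* (A10, 17522338 to 17524660), matching *CWINV6*, had 46.1, 57.9 and 15.1 in ‘CX001’, against 10.5, 1.93 and 6.74 in ‘FT’ (log2 fold change 2.59 ± 0.79 SE, limma adjusted p = 0.0257), and *BraA04g006780.3C* (A04, 4644673 to 4647260), matching *CWINV2*, had 5.36, 11.6 and 18.9 in ‘CX001’, against 0, 0.963 and 3.85 in ‘FT’ (log2 fold change 2.90 ± 0.88 SE, limma adjusted p = 0.0247). *CWINV3* and *CWINV6* are known to act on fructans rather than on sucrose. Without ‘CX001’ library 3 the *CWINV6* log2 fold change was 3.20 (limma adjusted p = 0.00405), and that of *CWINV2* without ‘FT’ library 3 3.69 (limma adjusted p = 0.0266). The *CWINV6* call was lost without any single library except ‘CX001’ library 3 (limma adjusted p up to 0.0982, without ‘FT’ library 2), and that of *CWINV2* without ‘CX001’ library 2 or 3 or ‘FT’ library 1 or 2 (up to 0.0923, without ‘FT’ library 1). A *CWINV1* match, *BraA01g037790.3C*, rested on 1 library, with 46.1, 0.965 and 0 in ‘CX001’, against 0, 0 and 5.78 in ‘FT’, and was not called. The 3 members matching a *Platanus* invertase inhibitor had at most 5 reads over a line and were not tested.

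Neutral invertases act in the cytosol, mitochondria and plastids, and their 11 members summed to 4547, 4054 and 4010 in ‘CX001’, against 5847, 5689 and 5957 in ‘FT’, lower in every ‘CX001’ library. Of 9 tested, 1 was lower and none higher. This was *BraA05g038930.3C* (A05, 26551635 to 26555321), matching the mitochondrial *INVC*, with 264, 284 and 136 in ‘CX001’, against 661, 976 and 1096 in ‘FT’, 4.14-fold lower in ‘CX001’ (log2 fold change -2.05 ± 0.30 SE, limma adjusted p = 8.15e-04). By adjusted p alone 4 of the 9 tested members were lower, against 23.9% of all genes tested. The *CINV2* match *BraA03g026930.3C* of the cytosol, with the most reads, had 1186, 998 and 1166 in ‘CX001’, against 1419, 1381 and 1230 in ‘FT’ and was not called (-0.27 on the log2 scale). The plastid *INVE* match *BraA10g018900.3C* had 817, 605 and 589 in ‘CX001’, against 1326, 1072 and 1263 in ‘FT’, below ‘FT’ in each library with a log2 fold change of -0.88 (limma adjusted p = 0.00264). An *INVB* match with few reads, *BraA08g015640.3C*, at 3.21, 0.965 and 0 in ‘CX001’, against 7.38, 2.89 and 5.78 in ‘FT’, was called only without ‘CX001’ library 1 (-2.73, limma adjusted p = 0.0441). The other *INVB* match, *BraA01g003470.3C*, had far more reads in every library and was not called (0.11 on the log2 scale).

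Starch synthases extend the glucan chains of the granule. No member was called, yet the 8 members summed to 4705, 4465 and 4655 in ‘CX001’, against 7414, 7105 and 7108 in ‘FT’, so that the ‘CX001’ libraries averaged 0.639 times ‘FT’. All 8 were tested, and 6 were lower and 1 higher in ‘CX001’ by adjusted p alone, against 23.9% and 24.1% of all genes, with the fold under 2 in each. *GBSS1*, which makes amylose, had the most reads. Its match *BraA05g022890.3C* (A05, 16684862 to 16688249) had 1686, 1586 and 1869 in ‘CX001’, against 3425, 2872 and 2750 in ‘FT’ (log2 fold change -0.81 ± 0.13 SE, limma adjusted p = 0.00153). The largest difference was that of the *SS2* match *BraA05g040820.3C* (A05, 27606042 to 27609177), with 643, 644 and 668 in ‘CX001’, against 1002, 1084 and 1559 in ‘FT’ (log2 fold change -0.87 ± 0.18 SE, limma adjusted p = 0.00404). *SS1* *BraA06g031630.3C* had 1090, 1057 and 1149 in ‘CX001’, against 1614, 1447 and 1359 in ‘FT’, and the matches of *SS4*, known from granule initiation, were below ‘FT’ in every library too. The exception was *SS3* *BraA08g031440.3C*, with 326, 284 and 237 in ‘CX001’, against 152, 212 and 156 in ‘FT’, above all ‘FT’ libraries (0.70 on the log2 scale, limma adjusted p = 0.0192), while its copy *BraA06g008300.3C* overlapped.

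Isoamylases trim branches, *ISA1* with *ISA2* during synthesis and *ISA3* during breakdown. The 5 members summed to 2237, 2067 and 2378 in ‘CX001’, against 3162, 3492 and 3173 in ‘FT’. *BraA08g035410.3C* (A08, 22741622 to 22744183), an *ISA2* match, was called lower with 97.5, 108 and 99.1 in ‘CX001’, against 231, 376 and 275 in ‘FT’, 2.84-fold (log2 fold change -1.50 ± 0.23 SE, limma adjusted p = 0.00114). *ISA3* *BraA03g026790.3C* (A03, 13258164 to 13262378), with the most reads, had 1283, 1173 and 1280 in ‘CX001’, against 1928, 2156 and 2013 in ‘FT’ and stayed under the fold criterion (log2 fold change -0.71 ± 0.12 SE, limma adjusted p = 0.00144). *ISA1* *BraA05g006150.3C* overlapped at 695, 638 and 799 in ‘CX001’, against 777, 734 and 685 in ‘FT’.

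Beta-amylases release maltose from starch. Their 15 members summed to 6707, 7652 and 8025 in ‘CX001’, against 11612, 10073 and 13278 in ‘FT’, with the ‘CX001’ mean at 0.64 times that of ‘FT’, and 12 of the 14 tested had a negative log2 fold change (median -0.69, against 0.0047 over all genes tested). By adjusted p alone 5 were lower and 2 higher, against 23.9% and 24.1% of all genes tested. Called lower were 3, all matches of plastid enzymes. *BraA03g041030.3C* (A03, 20506964 to 20509127), matching *BAM1*, had 62.1, 58.9 and 62.3 in ‘CX001’, against 490.2, 411 and 445 in ‘FT’, 7.27-fold lower in ‘CX001’ with nearly equal libraries (log2 fold change -2.86 ± 0.19 SE, limma adjusted p = 3.57e-05). The *BAM1* match with more reads, *BraA07g008810.3C* (A07, 8845945 to 8848707), had 1560, 1266 and 1153 in ‘CX001’, against 3163, 2469 and 3563 in ‘FT’ (log2 fold change -1.20 ± 0.17 SE, limma adjusted p = 7.97e-04). *BAM1* is known from stomata and from stress. *BraA09g000540.3C* (A09, 248726 to 250803), matching *BAM2*, had 403, 422 and 908 in ‘CX001’, against 1259, 1297 and 1346 in ‘FT’ (log2 fold change -1.27 ± 0.28 SE, limma adjusted p = 0.00561), with ‘CX001’ library 3 nearest to ‘FT’. *BAM3*, the main enzyme of starch loss at night in leaves, had the most reads as *BraA03g047370.3C*, with 2061, 2846 and 4082 in ‘CX001’, against 4037, 3517 and 5108 in ‘FT’, and its libraries overlapped (log2 fold change -0.53, limma adjusted p = 0.107). The *BAM3* match with fewer reads, *BraA01g019450.3C*, was called lower only without ‘CX001’ library 1 (-2.07, limma adjusted p = 0.00494) or with weights per library (-1.63, limma adjusted p = 0.0281).

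There were 2 beta-amylase calls in the other direction. *BraA10g021480.3C* (A10, 15350838 to 15352708), matching *BAM9*, which lacks beta-amylase activity, had 351, 172 and 367 in ‘CX001’, against 51.6, 72.2 and 63.5 in ‘FT’ (log2 fold change 2.16 ± 0.39 SE, limma adjusted p = 0.00231). Its copy *BraA03g008720.3C* overlapped at 318, 99.4 and 203 in ‘CX001’, against 286, 274 and 309 in ‘FT’. *BraA08g000720.3C* (A08, 468633 to 471009), matching the phloem enzyme *BAM5*, had 16, 18 and 3 reads in ‘CX001’ and none in ‘FT’, at least 12.5-fold higher if ‘FT’ is set at a floor of 3 reads in its 3 libraries together (limma adjusted p = 0.00835). Without ‘CX001’ library 3, its lowest, the limma adjusted p was 0.000866. The *BAM5* match with most of the reads, *BraA08g011170.3C*, had 1013, 2006 and 498 in ‘CX001’, against 1287, 899 and 1323 in ‘FT’ and overlapped.

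Alpha-amylases cut starch inside its chains, and 2 of 3 members were higher in ‘CX001’. *BraA01g022020.3C* (A01, 12212349 to 12215722), matching the secreted *AMY1*, had 212, 443 and 149 in ‘CX001’, against 40.1, 54.9 and 46.2 in ‘FT’, 5.11-fold higher (log2 fold change 2.35 ± 0.51 SE, limma adjusted p = 0.00556). *BraA07g039610.3C* (A07, 27065680 to 27068050), matching *AMY2*, had 457, 541 and 458 in ‘CX001’, against 216, 202 and 241 in ‘FT’ (log2 fold change 1.14 ± 0.15 SE, limma adjusted p = 5.05e-04). *AMY3*, the plastid form, was below ‘FT’ in every ‘CX001’ library as *BraA07g034700.3C*, with 1580, 1501 and 1365 in ‘CX001’, against 1811, 2171 and 1906 in ‘FT’, under the fold criterion (log2 fold change -0.40, limma adjusted p = 0.0284). As *AMY3* gave most of their reads, the sums of the role overlapped, at 2250, 2485 and 1972 in ‘CX001’, against 2067, 2429 and 2193 in ‘FT’. *BraAnng006020.3C* (Scaffold1017, 17073 to 18940), whose best match was a fungal glucoamylase, had 65.3, 55 and 91.6 in ‘CX001’, against 3.16, 12.5 and 2.89 in ‘FT’ (log2 fold change 3.67 ± 0.57 SE, limma adjusted p = 0.00114), and 4.31 on the log2 scale without ‘FT’ library 2. Its place in starch breakdown rests on that match alone.

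Galactinol synthase starts the raffinose path by joining galactose to myo-inositol. Of 4 members, 1 was higher in ‘CX001’ and none lower. *BraA05g000680.3C* (A05, 388537 to 389828), matching *GOLS1*, had 194, 121 and 148 in ‘CX001’, against 23.2, 23.1 and 24.1 in ‘FT’, 6.3-fold higher (log2 fold change 2.66 ± 0.33 SE, limma adjusted p = 3.73e-04), and the ‘FT’ libraries were within 1 normalized count of each other. The second *GOLS1* match, *BraAnng003750.3C*, had 18.2, 21.2 and 11.3 in ‘CX001’, against 23.2, 20.2 and 16.4 in ‘FT’ and overlapped. The *GOLS2* match *BraA09g018570.3C* had 265, 6.75 and 6.61 in ‘CX001’, against 25.3, 12.5 and 45.2 in ‘FT’, so that 1 ‘CX001’ library stood far above the others and the remaining 2 were below all of ‘FT’. The cold-linked *GOLS3* as *BraA09g062410.3C* had 7.5, 1.93 and 13.2 in ‘CX001’, against 7.38, 2.89 and 2.89 in ‘FT’ and was not called.

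Raffinose and stachyose synthases, also named galactinol-sucrose galactosyltransferases, had 3 higher and 1 lower of 5 tested, and summed to 7614, 6054 and 3157 in ‘CX001’, against 2232, 1774 and 1824 in ‘FT’. *BraA08g000400.3C* (A08, 235855 to 239114), matching *RFS1*, showed the largest fold of all tested members. It had 410.3, 414 and 457 in ‘CX001’, against 11.6, 9.63 and 7.7 in ‘FT’, 42.8-fold higher in ‘CX001’ (log2 fold change 5.42 ± 0.33 SE, limma adjusted p = 3.22e-05). *BraA09g048100.3C* (A09, 36248607 to 36252371), matching *RFS2*, whose *Arabidopsis* protein is known to cut raffinose rather than make it, gave most reads with 6654, 4706 and 2275 in ‘CX001’, against 1589, 1136 and 1264 in ‘FT’ (log2 fold change 1.66 ± 0.34 SE, limma adjusted p = 0.00437). As for *SUS1* *BraA03g009830.3C*, its ‘CX001’ libraries stood in the order of the summed xylem markers, which the summed green tissue markers shared, and a part of either tissue in this was not tested. Without ‘CX001’ library 1 its log2 fold change was 1.31 (limma adjusted p = 0.0102). *BraA04g012960.3C* (A04, 10125915 to 10129266), matching *RFS5*, the raffinose synthase of *Arabidopsis* leaves, was lower with 109, 43.4 and 55.7 in ‘CX001’, against 242, 310.1 and 278 in ‘FT’, 4.34-fold (log2 fold change -2.12 ± 0.30 SE, limma adjusted p = 7.10e-04). *BraA10g020320.3C* (A10, 14753725 to 14756626), an *RFS6* match, had 301, 571 and 282 in ‘CX001’, against 209, 199 and 133 in ‘FT’ and only just passed (log2 fold change 1.05 ± 0.31 SE, limma adjusted p = 0.0227). It fell below the fold criterion without ‘CX001’ library 2 (0.72, limma adjusted p = 0.0422), without ‘FT’ library 3 (0.84, limma adjusted p = 0.0882) and with scaling by library totals (0.98). The other *RFS6* match, *BraA02g008780.3C*, overlapped (0.13 on the log2 scale).

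Trehalose-phosphate synthases fall into class I (*TPS1* to *TPS4*), with the active *TPS1*, and class II (*TPS5* to *TPS11*), whose enzyme activity in *Arabidopsis* is little or none and which are mostly read as regulators. Of 14 tested, 4 were lower and 1 higher, all in class II. The class II members summed to 7750, 6222 and 7542 in ‘CX001’, against 11309, 9816 and 11196 in ‘FT’. The main *TPS1* gene, *BraA07g041670.3C*, overlapped at 842, 923 and 635 in ‘CX001’, against 825, 733 and 885 in ‘FT’ (log2 fold change -0.04, limma adjusted p = 0.858), and none of the 3 class I members tested was called.

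The 4 lower genes matched *TPS6*, *TPS8*, *TPS9* and *TPS11*. *BraA08g026340.3C* (A08, 18806056 to 18809007), matching *TPS9*, had 650.2, 96.5 and 127 in ‘CX001’, against 1415, 1200 and 1644 in ‘FT’, 7.23-fold lower in ‘CX001’ (log2 fold change -2.85 ± 0.53 SE, limma adjusted p = 0.00279). Library 1 of ‘CX001’ was far above the other 2, and without it the log2 fold change was -3.66 (limma adjusted p = 0.000159). *BraA09g011560.3C* (A09, 6738054 to 6740810), matching *TPS11*, had 333, 146 and 168 in ‘CX001’, against 991, 787 and 828 in ‘FT’ (log2 fold change -2.11 ± 0.27 SE, limma adjusted p = 4.03e-04). *BraA02g019700.3C* (A02, 11314430 to 11317168), matching *TPS8*, had 881, 402 and 498 in ‘CX001’, against 2606, 1491 and 2310 in ‘FT’ (log2 fold change -1.90 ± 0.30 SE, limma adjusted p = 0.00126). In both of these, too, ‘CX001’ library 1 was the highest of its line and still below all of ‘FT’. *BraA07g030960.3C* (A07, 22584868 to 22587632), matching *TPS6*, had 846, 782 and 1094 in ‘CX001’, against 1861, 1909 and 1816 in ‘FT’ (log2 fold change -1.05 ± 0.15 SE, limma adjusted p = 6.73e-04), and without ‘CX001’ library 2 it was at -0.95 (limma adjusted p = 0.0039). In *Arabidopsis*, transcripts of *TPS8* to *TPS11* are known to fall when sugar is given. Among the matches of this class that were not called were *TPS5* *BraA03g047730.3C* at 1895, 1776 and 2801 in ‘CX001’, against 1790, 1635 and 1742 in ‘FT’ and *TPS10* *BraA03g061490.3C* at 474, 492 and 429.5 in ‘CX001’, against 410.1, 479.5 and 479 in ‘FT’, which both overlapped.

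The 1 call in the other direction was *BraA10g005150.3C* (A10, 2760313 to 2761173), a *TPS7* match with 50.4, 56 and 21.7 in ‘CX001’, against 6.33, 6.74 and 13.5 in ‘FT’ (log2 fold change 2.16 ± 0.57 SE, limma adjusted p = 0.014), which was lost without ‘FT’ library 1 (limma adjusted p = 0.0562) or 2 (0.056). Its coding length is 579 bases, and it is the last of 4 short *TPS7* models in a row on A10, so whether it is a separate gene is uncertain. Its neighbour *BraA10g005140.3C* had 13.9, 33.8 and 15.1 in ‘CX001’, against 8.43, 8.67 and 8.66 in ‘FT’ and was not called. The long *TPS7* match *BraA08g033930.3C*, with 1896, 1971 and 1945 in ‘CX001’, against 1575, 1601 and 1627 in ‘FT’, was above ‘FT’ in each library by a log2 fold change of 0.28 (limma adjusted p = 0.0641).

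Trehalose-phosphate phosphatases had the most calls of any role, with 9 of 13 tested higher in ‘CX001’ and 1 lower, against 14.4% and 16% of all genes. They summed to 2292, 2844 and 1577 in ‘CX001’, against 682, 542 and 1142 in ‘FT’, and the median log2 fold change over the 13 was 1.79. With the most reads, *BraA01g013200.3C* (A01, 6906366 to 6908043), matching *TPPG*, had 777, 1068 and 522 in ‘CX001’, against 277, 142 and 317 in ‘FT’ (log2 fold change 1.71 ± 0.35 SE, limma adjusted p = 0.00409). The second *TPPG* match, *BraA03g050290.3C* (A03, 25819012 to 25820629), had 147, 104 and 80.2 in ‘CX001’, against 23.2, 19.3 and 18.3 in ‘FT’ and the largest fold of the role, 5.18 (log2 fold change 2.37 ± 0.38 SE, limma adjusted p = 0.00123). Both matches of *TPPJ* were higher. *BraA06g028610.3C* (A06, 19796743 to 19798967) had 506, 529 and 178 in ‘CX001’, against 38, 86.7 and 101 in ‘FT’ (log2 fold change 2.35 ± 0.57 SE, limma adjusted p = 0.00976), and *BraA02g045000.3C* (A02, 30925264 to 30927609) had 144, 178 and 101 in ‘CX001’, against 34.8, 63.5 and 67.4 in ‘FT’ (log2 fold change 1.34 ± 0.34 SE, limma adjusted p = 0.0109).

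Likewise, both *TPPB* matches were higher. *BraA07g041220.3C* (A07, 27852826 to 27855396) had 188, 201 and 123 in ‘CX001’, against 36.9, 38.5 and 61.6 in ‘FT’ (log2 fold change 1.88 ± 0.32 SE, limma adjusted p = 0.0018). *BraA02g024520.3C* (A02, 14565700 to 14568004) had 38.6, 71.4 and 49.1 in ‘CX001’, against 21.1, 25 and 25 in ‘FT’ (log2 fold change 1.11 ± 0.35 SE, limma adjusted p = 0.0293), and was not called without ‘CX001’ library 2 (0.87, limma adjusted p = 0.0822) or any 1 ‘FT’ library (limma adjusted p up to 0.083). *BraA04g016190.3C* (A04, 12284641 to 12287456), matching *TPPE*, had 86.8, 33.8 and 73.6 in ‘CX001’, against 9.49, 11.6 and 17.3 in ‘FT’ (log2 fold change 2.21 ± 0.53 SE, limma adjusted p = 0.00916). In all these genes the ‘CX001’ libraries stood above the ‘FT’ libraries.

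The *TPPI* and *TPPA* matches were less even. *BraA03g004140.3C* (A03, 1768485 to 1770660), matching *TPPI*, had 104, 169.8 and 70.8 in ‘CX001’, against 15.8, 10.6 and 109.7 in ‘FT’, with ‘FT’ library 3 above 2 of the ‘CX001’ libraries. It barely passed (log2 fold change 1.98 ± 0.72 SE, limma adjusted p = 0.0498). The call was lost in 8 of 12 alternative fits, among them those without ‘CX001’ library 1 or 2 or ‘FT’ library 1 or 2 (limma adjusted p up to 0.208), while without ‘FT’ library 3 the log2 fold change was 3.01 (limma adjusted p = 0.0108). The second *TPPI* match, *BraA10g027740.3C*, had the same uneven ‘FT’ libraries with 88.9, 255 and 119 in ‘CX001’, against 16.9, 17.3 and 208 in ‘FT’. It was not called (log2 fold change 1.79, limma adjusted p = 0.105) unless ‘FT’ library 3 was left out (3.00, limma adjusted p = 0.0166). The *TPPA* matches went in opposite directions. *BraA02g015830.3C* (A02, 8408594 to 8410600) had 101, 141 and 90.6 in ‘CX001’, against 28.5, 25 and 33.7 in ‘FT’ (log2 fold change 1.90 ± 0.31 SE, limma adjusted p = 0.00148), and *BraA10g010090.3C* (A10, 8310234 to 8312198) had 27.9, 27 and 5.66 in ‘CX001’, against 69.6, 33.7 and 56.8 in ‘FT’ (log2 fold change -1.63 ± 0.59 SE, limma adjusted p = 0.0486). The *BraA10g010090.3C* call was lost without ‘CX001’ library 2 or 3 or ‘FT’ library 1 or 3 (limma adjusted p up to 0.135, with a log2 fold change of -0.88, without ‘CX001’ library 3), and also with limma-trend on log2(normalized count + 1) (limma adjusted p = 0.0608) and with no filter on low counts (limma adjusted p = 0.053).

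Trehalase, which splits trehalose into glucose, was seen in *BraA01g014770.3C* with 62.1, 37.6 and 24.5 in ‘CX001’, against 7.38, 6.74 and 34.6 in ‘FT’. It was not called (log2 fold change 1.60 ± 0.64 SE, limma adjusted p = 0.068) but passed without ‘CX001’ library 3 (1.93, limma adjusted p = 0.0416) or ‘FT’ library 3 (2.35, limma adjusted p = 0.0261).

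**Figure D4:**
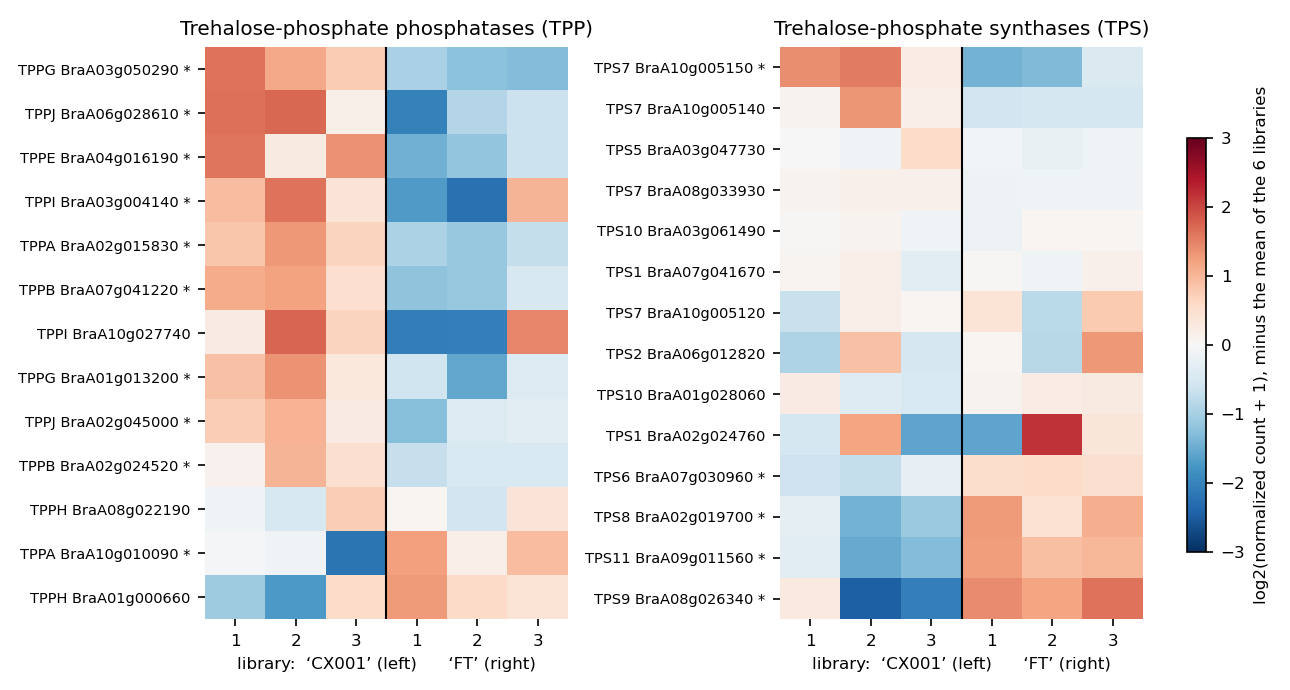
Tested trehalose-phosphate phosphatases (left panel, 13) and synthases (right panel, 14), each row a gene ordered by log2 fold change and marked * where called, each column a library with the 3 ‘CX001’ left of the 3 ‘FT’. Colour gives log2(normalized count + 1) minus the mean of the 6 libraries of that gene. Most phosphatase rows were above their mean in ‘CX001’, and *TPS6*, *TPS8*, *TPS9* and *TPS11* below it apart from *TPS9* in library 1.

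Genes with the same match were not always called alike. In 38 pairs of tested members over 31 matches, both were called in the same direction in 7, 1 was called and the other not in 14, neither was called in 16, and the *TPPA* pair was called in opposite directions. Pairs of *SPS1* and of *TPS7* models share genes, so the 38 pairs are not independent. The log2 ratio of the copies, taken per kb of coding length, did not overlap between the lines in 23 pairs, and the share among copy pairs over all genes was not worked out. An exact permutation test with 3 libraries against 3 (2-sided) cannot go below p = 0.1, which these pairs reached, with 0.165 after Benjamini-Hochberg adjustment over the 38 pairs, so none passed. For *SPP2*, *BraA03g018710.3C* over *BraA04g025460.3C* stood at log2 ratios of 1.41, 1.04 and 1.23 in ‘CX001’, against 6.10, 6.10 and 6.16 in ‘FT’. Per kb, *BraA04g025460.3C* averaged 401 normalized counts in ‘CX001’ and 12.2 in ‘FT’, and *BraA03g018710.3C* 939.6 in ‘CX001’ and 878 in ‘FT’. For *TPPA*, *BraA02g015830.3C* over *BraA10g010090.3C* stood at 1.86, 2.39 and 3.91 in ‘CX001’, against -1.25, -0.40 and -0.72 in ‘FT’, so that a different copy stood higher in each line. For *BAM9*, too, the order turned, *BraA03g008720.3C* over *BraA10g021480.3C* being at -0.12, -0.77 and -0.83 in ‘CX001’, against 2.48, 1.93 and 2.29 in ‘FT’. For *SUS1*, the ratios of *BraA03g009830.3C* over *BraA10g019840.3C* overlapped, at -0.12, -0.90 and -1.94 in ‘CX001’, against -1.40, -1.29 and -1.70 in ‘FT’.

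**Figure D5:**
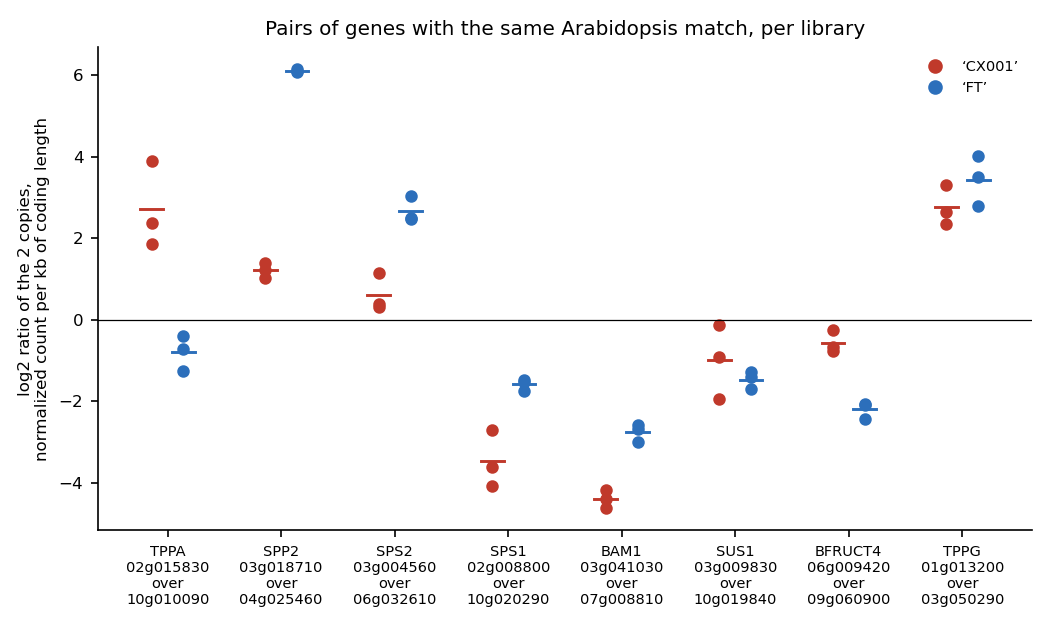
Log2 ratio of normalized counts per kb of coding length (y axis) for 8 pairs of genes sharing a match (x axis, first gene over second, names without the prefix BraA), chosen after their values were seen. Points are the 3 libraries of a line, bars their mean, ‘CX001’ left in red and ‘FT’ right in blue. The lines were apart in 6 pairs and overlapped in *SUS1* and *TPPG*.

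The members spread more between ‘CX001’ libraries than between ‘FT’ libraries. The median SD of log2(normalized count + 1) over 3 libraries was 0.420 in ‘CX001’ and 0.249 in ‘FT’ for the tested members, against 0.270 in ‘CX001’ and 0.234 in ‘FT’ for all genes tested. The SD was larger in ‘CX001’ for 65 of the 104 members (62.5%, against 56.2% of all genes). Library 1 of ‘CX001’ was over 2-fold above both others of its line in 10 of the 104 members, against 1255 of all 27565 genes, and library 3 over 2-fold below both others in 12 members, against 1061 genes. The summed markers of green tissue were 33280, 20836 and 20026 in ‘CX001’, against 40699, 29767 and 31808 in ‘FT’ (2 of 7 genes higher and 3 lower), and their part in the lower starch genes was not tested. Another green tissue match, *RCA* *BraA04g027940.3C*, is not in these sums because its reads could not be worked out. Of 12 xylem markers tested 6 were called higher in ‘CX001’ and none lower, of 10 phloem markers none higher and 2 lower, and of 7 epidermis markers none either way. The epidermis markers were matches of *ATML1*, *PDF2* and *FDH*. *CER6* was also sought, but no gene carried that match name, and the paper reports a *CER6* gene as down-regulated in ‘CX001’. Time of harvest is not given, and of 14 clock genes, whose levels move through the day, 2 were higher and 1 lower. Their sums were 5268 to 6195 in ‘CX001’ and 6079 to 7290 in ‘FT’, and such sums hide genes that differ in opposite directions. All ‘CX001’ libraries lay above all ‘FT’ libraries for 5 of the 14 clock genes and below them for 3, against 29.6% and 28.7% of all genes. Among these were *APRR9* *BraA04g032300.3C* (1.79 on the log2 scale) and *ELF4* *BraA03g021240.3C* (-2.74). The *ELF4* match *BraA04g028140.3C* went the other way and was called higher (1.78), and the *ELF4* match *BraA05g006050.3C* overlapped (0.32). A difference in time of harvest was not tested. Without ‘CX001’ library 1, 26 members were called higher and 18 lower.

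Genes that feed or use the same sugars but do not fall under the wording were read from a list of 93, of which 88 were tested, 13 higher and 14 lower in ‘CX001’. These are 14.8% and 15.9% of those tested, near the 14.4% higher and 16% lower of all genes, so the calls below describe single genes and not the list. Cytosolic phosphoglucomutase, which joins the hexose phosphates of sucrose and starch, had 1 gene called higher, *BraA08g026610.3C*, with 5545, 5325 and 4902 in ‘CX001’, against 2202, 1825 and 2039 in ‘FT’ (log2 fold change 1.38, limma adjusted p = 9.40e-05). Of the 5 genes found as phosphoglucomutase 1 other was called, *BraA07g035520.3C*, whose match is a phosphomannomutase/phosphoglucomutase and which was lower (-1.11, limma adjusted p = 0.00348). UDP-glucose pyrophosphorylase, which makes UDP-glucose, was above ‘FT’ in every library without reaching the fold criterion in its *UGP2* match *BraA05g041780.3C*, with 10273, 10773 and 10231 in ‘CX001’, against 5842, 5041 and 5447 in ‘FT’ (0.94 on the log2 scale). The *UGP3* match *BraA09g046780.3C* was lower (-1.27, limma adjusted p = 0.00133).

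ADP-glucose pyrophosphorylase supplies starch synthase, and of its 8 genes 1 was lower and none higher. This was *BraA02g008040.3C*, matching *ADG2*, with 455, 388 and 286 in ‘CX001’, against 959, 1083 and 961 in ‘FT’ (-1.44, limma adjusted p = 3.51e-04). The small subunit with the most reads, *BraA07g007620.3C*, had 5721, 5914 and 6219 in ‘CX001’, against 11399, 9136 and 8779 in ‘FT’ and stayed under the fold criterion (-0.71 on the log2 scale). Glucan phosphorylases (3), pullulanase (1) and the glucanotransferases (2) had no call. Of 5 glucan water dikinases, the *GWD2* match *BraA01g015230.3C*, whose description does not name the plastid, was higher (1.14, limma adjusted p = 2.80e-04). The other 4 matched the plastid enzymes *GWD1* and *GWD3*, which phosphorylate starch before its breakdown. They had negative log2 fold changes and were not called. Of these, both *GWD3* matches, *BraA09g005550.3C* (-0.94, limma adjusted p = 6.70e-04) and *BraA02g041250.3C* (-0.91, limma adjusted p = 0.00136), and the *GWD1* match *BraA08g031920.3C* (-0.64, limma adjusted p = 0.00389) lay below ‘FT’ in every ‘CX001’ library, and the second *GWD1* match *BraA09g061530.3C* overlapped (-0.50). Phosphoglucan phosphatases, which remove that phosphate, had 1 of 4 higher, a match of *DSP4* (*BraA09g043360.3C*) with 43.9, 37.6 and 76.5 in ‘CX001’, against 8.43, 0.963 and 4.81 in ‘FT’ (3.66, limma adjusted p = 0.00294). Its coding length is only 330 bases, so whether it is a full gene is uncertain. The longer *DSP4* match *BraA09g043390.3C* (1134 bases) overlapped at 1323, 1406 and 2329 in ‘CX001’, against 1457, 1870 and 1822 in ‘FT’ (-0.07).

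Of 9 genes found as hexokinase, whose wording also takes in a match of mouse ketohexokinase, 2 were higher, both matches of hexokinase-3. Another hexokinase-3 match, *BraA06g003260.3C*, overlapped at 254, 596 and 339 in ‘CX001’, against 630, 278 and 805 in ‘FT’ (-0.48). *BraA05g019040.3C* had 1411, 2586 and 1243 in ‘CX001’, against 426, 129 and 328 in ‘FT’ (2.67, limma adjusted p = 0.0013). The 20 tested genes found as fructokinase, whose wording also takes in phosphofructokinases, had 5 higher and 4 lower, of which only fructokinase-7 and fructokinase-6 were not phosphofructokinases. Fructokinase-7 *BraA10g010430.3C* had 943, 908 and 919 in ‘CX001’, against 201, 196 and 195 in ‘FT’ (2.22, limma adjusted p = 2.83e-05), and the plastid fructokinase-6 *BraA07g032140.3C* had 836, 1030 and 1026 in ‘CX001’, against 2047, 2390 and 1858 in ‘FT’ (-1.12, limma adjusted p = 4.74e-04). Inositol-3-phosphate synthase, which starts the inositol that galactinol is built on, had 1 higher and 2 lower of 3. *BraA04g016220.3C* had 1771, 2004 and 1863 in ‘CX001’, against 966, 689 and 854 in ‘FT’ (1.18, limma adjusted p = 4.05e-04), and *BraA09g055030.3C* had 616, 403 and 541 in ‘CX001’, against 1281, 821 and 1296 in ‘FT’ (-1.12, limma adjusted p = 0.00395).

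Alpha-galactosidases, which take galactose off raffinose sugars, had 1 higher and 3 lower of 8. *AGAL1* *BraA02g002710.3C* had 618, 363 and 711 in ‘CX001’, against 139, 132 and 208 in ‘FT’ (1.79, limma adjusted p = 0.00177). The lower calls were all matches of *AGAL3*. The longest, *BraA09g047020.3C* (1290 bases), had 283, 251 and 270 in ‘CX001’, against 573, 565 and 577 in ‘FT’ (-1.10, limma adjusted p = 2.88e-04). The short model *BraA06g024870.3C* (219 bases) had no read in ‘CX001’, against 25.3, 41.4 and 12.5 in ‘FT’. Of 5 tested inhibitors of cell wall and vacuolar fructosidases, 1 was higher and 1 lower, and the one with the most reads, *BraA06g004920.3C*, had 355, 214 and 150.1 in ‘CX001’, against 595, 599 and 979.8 in ‘FT’ (-1.66, limma adjusted p = 0.00296). Of 5 tested SnRK1 catalytic subunit genes, 1 was lower, the *KIN11* match *BraA02g038630.3C* with 118, 110 and 174 in ‘CX001’, against 249.8, 296 and 285 in ‘FT’ (-1.07, limma adjusted p = 0.0032), and the *KIN10* match *BraA05g040920.3C* overlapped at 1248, 1138 and 1189 in ‘CX001’, against 1040, 1168 and 1252 in ‘FT’.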

How the data were processed

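RNA of stems at the bolting stage was sequenced on an Illumina Hiseq4000, in 3 libraries of ‘CX001’ and 3 of ‘FT’. The authors aligned reads to the *Brassica rapa* V3.0 genome with HISAT2 (the submitters' processing notes also name TopHat2, no version given), assembled with StringTie and compared the lines with DESeq2. The deposited values are a signal, the mean per line of read counts divided by size factors, for 33087 genes. The table also holds the authors' own comparison (fold change, log2 fold change, p-value, adjusted p-value and direction), which was not used.

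The means carry 15 significant digits and are sums of whole reads times 1 step per library, so the reads of each library were worked out for 33082 genes, with a unique solution or 0 in both lines for all 121 members. Size factors recomputed from these reads over 25098 genes differed from the steps by at most 1.93e-04 of their value. In simulated means, 99.97% (‘CX001’) and 99.99% (‘FT’) of genes were given back exactly, with 0 wrong. Which of the authors' libraries is number 1, 2 or 3 is not known. Where a line had no read, a floor of 3 reads over the line was used, which covers counting error only.

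The counts were tested with limma voom (limma 3.58.1, R 4.3.3) with the authors' size factors, over 27565 genes with a mean of at least 5 reads per library in either line, and p-values were adjusted by Benjamini-Hochberg over all of them. Calls followed the study's criteria, an adjusted p below 0.05 together with a log2 fold change beyond 1 in either direction. Log2 fold changes are ‘CX001’ over ‘FT’. Alternatives were limma-trend on log2(normalized count + 1) and + 4, scaling by library totals, no filter on low counts, a mean of at least 10 normalized counts, no minimum fold change, a log2 fold change over 1.5, each library left out, and weights per library. Copy ratios used 0.5 added to each count.

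In each role, every called member, the one with the highest mean and the not-called one with the largest log2 fold change were named, and other members named were chosen after their values were seen. Members, gene lists and markers were chosen with earlier results of these data known.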

Additional observations from a re-analysis of the deposited data

How the results depend on the processing

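Of the 42 called members, 33 passed both thresholds in all 12 alternative fits (22 higher and 11 lower), 9 lost a threshold in at least 1, and none reversed. Members called higher numbered 29, against 23 to 30 with 1 library left out, and members called lower 13, against 11 to 18, with 26 higher and 18 lower without ‘CX001’ library 1. Without a minimum fold change, 28 members were lower, 23 related genes higher and 29 related genes lower, against 13, 13 and 14. These are of 104 members and 88 related genes tested. By this criterion 24.1% of all genes tested were higher and 23.9% lower. With a log2 fold change over 1.5, 8 related genes were higher and 6 lower, and the share of all genes is not given here. Related genes ranged from 12 to 15 higher and from 11 to 13 lower with 1 library left out. Weights per library, chosen after seeing the data, gave 28 higher and 14 lower. Scaling by library totals moved the median log2 fold change of all genes by -0.0685. The cause of these shifts was not tested. Members with under 10 reads in a library lie near what the depth can show. No paired analysis was possible because the libraries worked out from the line means carry no replicate number.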

Other observations

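A related gene was read in ‘CX001’ only. *BraA01g014640.3C*, a match of the phosphofructokinase *PFK5*, had 70.7, 57.9 and 69.9 normalized counts in ‘CX001’ and no read in ‘FT’. Among members that were not called, *BAM6* and *SPS4* had far more reads in library 1 than in the other ‘CX001’ libraries, and were chosen after their values were seen. *BraA05g012610.3C*, matching *BAM6*, had 54.6, 8.69 and 3.78 in ‘CX001’, against 43.2, 17.3 and 37.5 in ‘FT’, and *BraA02g028970.3C*, matching *SPS4*, had 1227, 404 and 309 in ‘CX001’, against 772, 407 and 590.0 in ‘FT’.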
